A study of Mus musculus with 14 samples.

Results

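Bulge and interfollicular cells of mouse epidermis that lacked the histone methyltransferase G9a were compared on 8 of the 14 arrays of a study of skin in homeostasis, 4 arrays of bulge cells and 4 of cells of the interfollicular epidermis (IFE). The arrays were taken by their labels: tissue epidermis, genotype G9a cKO (conditional knockout), cell compartment bulge or IFE, and an age of 15 weeks. The remaining 6 arrays came from G9a WT mice of the same age, with 3 arrays of bulge cells and 3 of IFE cells, and gave the compartment difference in the presence of G9a. No treatment is labelled for any group. Neither the promoter that drove the deletion nor the way the cells were separated, nor any pooling of animals, is stated by the labels. They also do not tie a replicate to an animal, and p-values here therefore cover only the spread between these samples, which may be technical. Cells were pooled on each array, and fewer cells of a type and less RNA per cell cannot be told apart.

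The bulge is the niche of the hair follicle that houses its slow-cycling stem cells, which are marked by CD34 and LGR5 and held in place by transcription factors such as LHX2, SOX9 and TBX1. The interfollicular epidermis renews the skin surface: basal cells rich in keratins 5 and 14 leave the basement membrane, switch to keratins 1 and 10 and cornify. G9a, encoded by Ehmt2, dimethylates lysine 9 of histone H3 in a complex with its partner GLP, encoded by Ehmt1, and is known as a repressor of transcription.

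The difference of the group means, bulge minus IFE, was taken for each of 17097 genes on the log2 scale, so that a positive value is a higher signal in the bulge. A gene is called higher or lower here where its adjusted p in limma was under 0.05, with no minimum size. The compartments differed for 5496 genes without G9a, 32.1% of those tested, of which 3007 (17.6%) were higher in the bulge and 2489 (14.6%) were higher in IFE. With each array centred on its median, the split was 2045 against 3118. In WT 5998 genes were called, 35.1%, with 3152 (18.4%) higher in the bulge and 2846 (16.6%) higher in IFE, and 2730 against 3695 after centring. Array medians lay between 5.76 and 5.84. The array files hold no detection call, so a signal near or below these medians was not tested against background and differences are given on the log2 scale with no fold.

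The deletion was visible on one of the Ehmt2 probe sets. It read 5.85, 5.98, 5.94 and 6.02 on the bulge cKO arrays and 5.97, 6.09, 6.04 and 5.95 on the IFE cKO arrays, against 9.51 to 9.69 in bulge WT and 9.59 to 9.78 in IFE WT. All cKO arrays of both compartments were thus far below all WT arrays, and the compartments lay together (bulge minus IFE -0.07, SE 0.06, limma adjusted p = 0.42 over all probe sets). The other Ehmt2 probe set, which has the higher mean signal and stood for the gene in the tests, read 7.84 to 8.04 on all bulge arrays and 7.84 to 8.05 on all IFE arrays. The position of these probe sets within the gene and the extent of the deletion are not stated by the labels. Ehmt1 averaged 8.93 ± 0.13 (SD, n = 4) in bulge cKO and 8.88 ± 0.10 (SD, n = 4) in IFE cKO, a difference of 0.05 (SE 0.10, limma adjusted p = 0.72).

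Promoter sequences are shown for 4 genes because the comparison turns on them. By the probe set that stood for each gene, Cd34 had the largest excess in the bulge without G9a and Slc1a1 the largest excess in IFE. Among genes with a called change between genotypes, Slc38a4 and Serpina3n had the largest reductions of the compartment difference relative to WT. Each run is the 250 bases before an annotated transcription start, read 5′ to 3′ on the gene's strand, from RefSeq for the build GRCm38.p6, with each CG dinucleotide in capitals, since CG content separates CpG-rich from CpG-poor promoters.
The Cd34 window lies at chr1:194938571-194938820 on the + strand and holds 6 CG:
Cd34: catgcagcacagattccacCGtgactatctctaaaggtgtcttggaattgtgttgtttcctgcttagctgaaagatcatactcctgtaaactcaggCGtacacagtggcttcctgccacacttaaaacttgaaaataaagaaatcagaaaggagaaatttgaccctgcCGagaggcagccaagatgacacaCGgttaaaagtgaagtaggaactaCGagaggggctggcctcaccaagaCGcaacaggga
The Slc1a1 window lies at chr19:28834885-28835134 on the + strand and holds 27 CG:
Slc1a1: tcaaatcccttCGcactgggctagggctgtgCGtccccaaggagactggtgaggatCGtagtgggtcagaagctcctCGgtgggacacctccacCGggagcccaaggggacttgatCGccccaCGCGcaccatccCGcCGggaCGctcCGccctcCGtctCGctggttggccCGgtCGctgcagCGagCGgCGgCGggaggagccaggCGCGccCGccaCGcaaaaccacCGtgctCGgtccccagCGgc
The Slc38a4 window is the 5′-most of 3 in the table, at chr15:97055957-97056206 on the - strand, and holds 3 CG:
Slc38a4: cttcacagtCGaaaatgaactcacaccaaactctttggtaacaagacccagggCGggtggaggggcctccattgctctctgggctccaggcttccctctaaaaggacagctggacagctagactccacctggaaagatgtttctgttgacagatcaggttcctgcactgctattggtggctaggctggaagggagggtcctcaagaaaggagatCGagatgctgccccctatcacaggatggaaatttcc
The Serpina3n window lies at chr12:104406458-104406707 on the + strand and holds 1 CG:
Serpina3n: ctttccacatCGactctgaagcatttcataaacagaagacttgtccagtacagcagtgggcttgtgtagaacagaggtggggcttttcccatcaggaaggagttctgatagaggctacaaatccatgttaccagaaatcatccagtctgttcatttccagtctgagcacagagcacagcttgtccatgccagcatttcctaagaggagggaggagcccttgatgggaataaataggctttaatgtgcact

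Among the 13605 tested genes with such a window, the median was 13 CG and 27.7% had 5 or fewer. Of the 311 genes higher in bulge cKO by at least 1 on the log2 scale, 240 had a window, with a median of 12.5 CG. The 307 genes higher in IFE cKO by as much gave 242 windows with a median of 14 CG. The Slc1a1 promoter has more CG than most, with 88.9% of windows holding as many or fewer, and the Serpina3n promoter has few, with 8.2% holding as many or fewer. The motif TGANTCA, the letters bound by AP-1 factors, searched on both strands with overlaps counted once, was found in 5.62% of all windows, 4.17% of those higher in the bulge and 9.09% of those higher in IFE. None of the 4 printed windows contains it. These shares are descriptions of the letters in the windows and no test was made of them.

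Replicates 2 and 3 of the cKO groups stood apart from replicates 1 and 4 in both compartments, before any gene is considered. Each array was placed along the WT compartment difference, using the 1341 genes called in WT with a difference of at least 1, so that 0 is the IFE WT mean and 1 the bulge WT mean. Bulge cKO replicates 1 and 4 lay at 0.89 and 0.87 and replicates 2 and 3 at 0.52 and 0.57. IFE cKO replicates 1 and 4 lay at -0.04 and -0.03 and replicates 2 and 3 at 0.15 and 0.15. Bulge cKO replicates 2 and 3 thus sat midway between the compartments, and the matching IFE replicates were displaced toward the bulge by a smaller step. Over all genes, bulge cKO replicate 2 correlated at 0.988 with IFE cKO replicate 2 and at 0.982 with bulge cKO replicate 1. The same-numbered replicates were not otherwise linked by the labels.

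**Figure D1:**
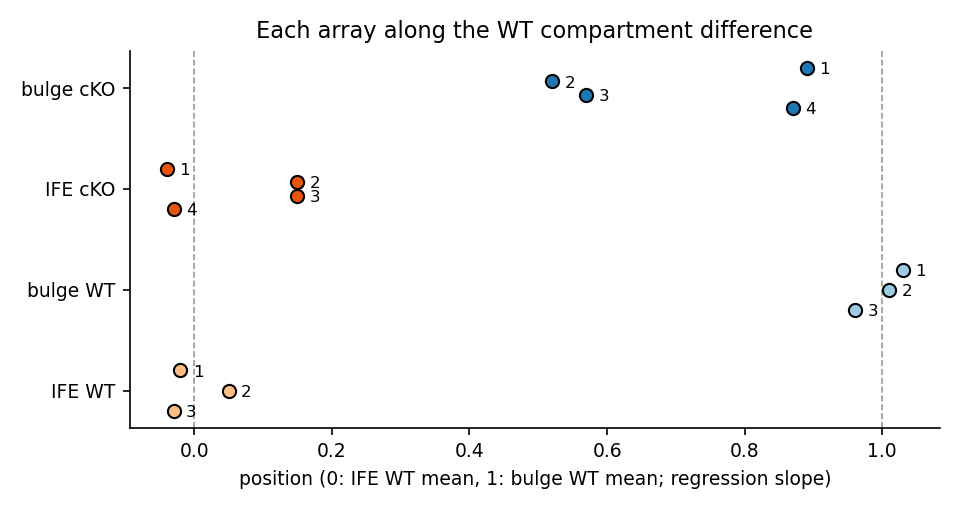
Position of each array (x axis, a regression slope without unit) by group (y axis), with 1 point per array labelled by its replicate number. Dashed lines mark the IFE WT mean at 0 and the bulge WT mean at 1. Bulge cKO replicates 2 and 3 lie at 0.52 and 0.57, apart from replicates 1 and 4 at 0.89 and 0.87.

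Bulge marker levels followed the same split, and interfollicular and suprabasal marker levels did so only in part. The mean level of 10 bulge markers was 9.86 and 10.02 on bulge cKO replicates 1 and 4 and 8.97 and 9.14 on replicates 2 and 3. On the IFE cKO arrays it was 6.25 and 6.26 on replicates 1 and 4 and 6.98 on the lower of replicates 2 and 3. The mean of 10 interfollicular and suprabasal markers was 7.69, 9.57, 9.22 and 8.74 on bulge cKO replicates 1 to 4. Replicate 1 was thus the lowest, and replicate 4 lay nearer to replicate 3 than to replicate 1. On IFE cKO replicates 1 to 4 this mean was 9.19, 9.71, 9.57 and 9.31. IFE replicates 2 and 3 were thus the highest of their group, not the nearest to the bulge, in these markers. The part of mixed compartments in the results was not tested. Values without bulge cKO replicates 2 and 3 are given beside many of the results below, and a result without such a value is not thereby shown to be unmoved.

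Markers of cells that are not keratinocytes differed between the cKO compartments in some lists. The mean of 10 Langerhans cell markers was 7.10 to 7.57 in bulge cKO and 7.04 to 7.38 in IFE cKO, with 1 of 10 called, Mfge8, which was higher in the bulge. The 10 epidermal T cell markers averaged 5.64 to 6.36 in bulge and 6.09 to 6.42 in IFE, with Thy1 (-1.95) and Cd247 (-0.31, called in 5 of the 8 leave-outs of a cKO array and not without bulge replicates 2 and 3) lower in the bulge. The 9 fibroblast markers averaged 5.64 to 6.06 and 5.29 to 5.65, with Fbln1 higher (2.05). Anagen hair markers averaged 5.85 to 6.10 in bulge and 5.50 to 5.64 in IFE, and 6 of 10 were higher in the bulge, 3 without bulge replicates 2 and 3. Of the 7 endothelial markers Emcn, Kdr, Pecam1 and Tek were higher in the bulge by 0.19 to 0.50, at mean levels of 5.18 to 5.31 against 5.05 to 5.13, which do not overlap. Without bulge replicates 2 and 3 only Tek was called among these 4. The 8 melanocyte markers averaged 5.71 to 5.80 on the bulge cKO arrays and 5.39 to 5.69 on the IFE cKO arrays, without overlap and near or below the array medians, with Mitf higher in the bulge (2.02). Merkel cell markers averaged 5.12 to 5.26 and 5.08 to 5.13, with Krt8 higher in the bulge (0.20, not called without bulge replicates 2 and 3). Skeletal muscle markers averaged 5.34 to 5.42 and 5.38 to 5.43, with Tnnc2 higher in IFE (-0.22). The markers named here were chosen after their values were seen. The part of these cells in the results was not tested.

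Genes that mark the bulge were higher in bulge than in IFE cells without G9a. Cd34, a surface glycoprotein of follicle stem cells, read 10.55, 9.84, 9.95 and 11.18 in bulge cKO and 5.10, 6.65, 6.53 and 5.16 in IFE cKO. The groups were far apart, with bulge replicates 2 and 3 the lowest of their group and IFE replicates 2 and 3 the highest of theirs. The difference of 4.52 (SE 0.38, limma adjusted p = 3.02e-05) was the largest in the bulge direction among the probe sets that stood for genes. A second probe set of Shisa2 gave more (4.87). The Cd34 difference was 5.01 without bulge replicates 2 and 3 and 6.05 in WT. Lgr5, a receptor for R-spondins that marks cycling and resting follicle stem cells, read 9.20, 8.70, 8.76 and 10.17 against 4.28, 5.76, 5.52 and 4.50. It showed the same arrangement of replicates, with a difference of 4.19 (SE 0.37, limma adjusted p = 4.05e-05), 4.67 without replicates 2 and 3 and 5.77 in WT.

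The 10 other genes with the largest excess in bulge cKO were Shisa2, Gfra1, Grem1, Col8a2, Lhx2, Sema3e, Col6a1, Nrep, S100a4 and Il31ra, with differences from 4.33 to 3.55. They were picked among called genes whose arrays do not overlap, so their lack of overlap is set by that choice. Of all genes, 33.0% did not overlap in cKO (4 against 4 arrays) and 47.4% in WT (3 against 3). Gfra1, the co-receptor that binds GDNF, had 11.18, 10.21, 10.33 and 11.15 in bulge cKO against 5.55, 7.39, 7.11 and 5.83 in IFE cKO (4.25, SE 0.39). Grem1, a secreted antagonist of BMPs, had 10.71, 9.67, 9.74 and 10.77 against 5.67, 6.65, 6.67 and 5.50 (4.10, SE 0.31). In both genes replicates 2 and 3 again lay nearest to the other compartment. Il31ra, a subunit of the receptor for the itch cytokine IL-31, differed by 3.55 (SE 0.29). S100a4, a calcium-binding protein, and Col6a1, a chain of collagen VI, kept nearly their WT size, with 3.56 against 3.96 in WT and 3.72 against 4.09.

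On the other side, Slc1a1, a transporter of glutamate and cysteine, had the largest excess in IFE cKO among the probe sets that stood for genes. A probe set of Clca3a2 that did not stand for its gene gave -2.68. Slc1a1 read 4.33, 5.78, 5.76 and 4.91 in bulge cKO and 8.72, 7.45, 7.44 and 7.73 in IFE cKO. The groups did not overlap, and the bulge values were lowest on replicates 1 and 4. The difference was -2.64 (SE 0.43, limma adjusted p = 0.000998), against -2.40 in WT. Plcxd2 (-2.60), the alarmin Il33 (-2.58), the transcription factor Ets1 (-2.54), the gasdermin Gsdmc2 (-2.48), the metalloprotease Adam8 (-2.48), the EGF receptor ligand Epgn (-2.43) and the guidance receptor Robo1 (-2.37) came next. They were followed by the ion exchanger Slc24a3, the inflammatory caspase Casp4, Clca2 and the protease inhibitor Serpinb7, from -2.33 to -2.32. All 12 were higher in IFE in every leave-out of a single cKO array.

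Of these 12 IFE genes, 10 had a larger difference in WT, and for none was the change between genotypes called. Il33, released by damaged keratinocytes, read 4.56, 6.34, 6.59 and 5.69 in bulge cKO and 8.39, 7.86, 8.15 and 9.11 in IFE cKO. Its bulge value on replicate 1 was near the WT bulge mean of 4.44, while replicates 2 and 3 were the highest. The difference was -2.58 in cKO, -3.25 without bulge replicates 2 and 3 and -4.30 in WT, and the change between genotypes was not called (1.72, limma adjusted p = 0.263). Epgn, which encodes epigen, read 6.30, 7.99, 7.93 and 7.13 against 10.38, 9.32, 9.42 and 9.95. The same replicates were nearest to IFE, and the difference of -2.43 became -3.05 without them, against -4.27 in WT.

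Gsdmc2 went the other way. It read 3.84, 4.67, 4.98 and 4.15 in bulge cKO and 7.37, 6.21, 6.66 and 7.34 in IFE cKO, with means of 3.59 and 4.35 in bulge and IFE WT. The IFE cKO arrays were above all others, and the compartment difference was -2.48 (SE 0.28, limma adjusted p = 0.000135) in cKO and -0.76 (limma adjusted p = 0.0867) in WT. The change between genotypes was not called (-1.72, limma adjusted p = 0.181). Its bulge and WT levels lie below the array medians.

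**Figure D2:**
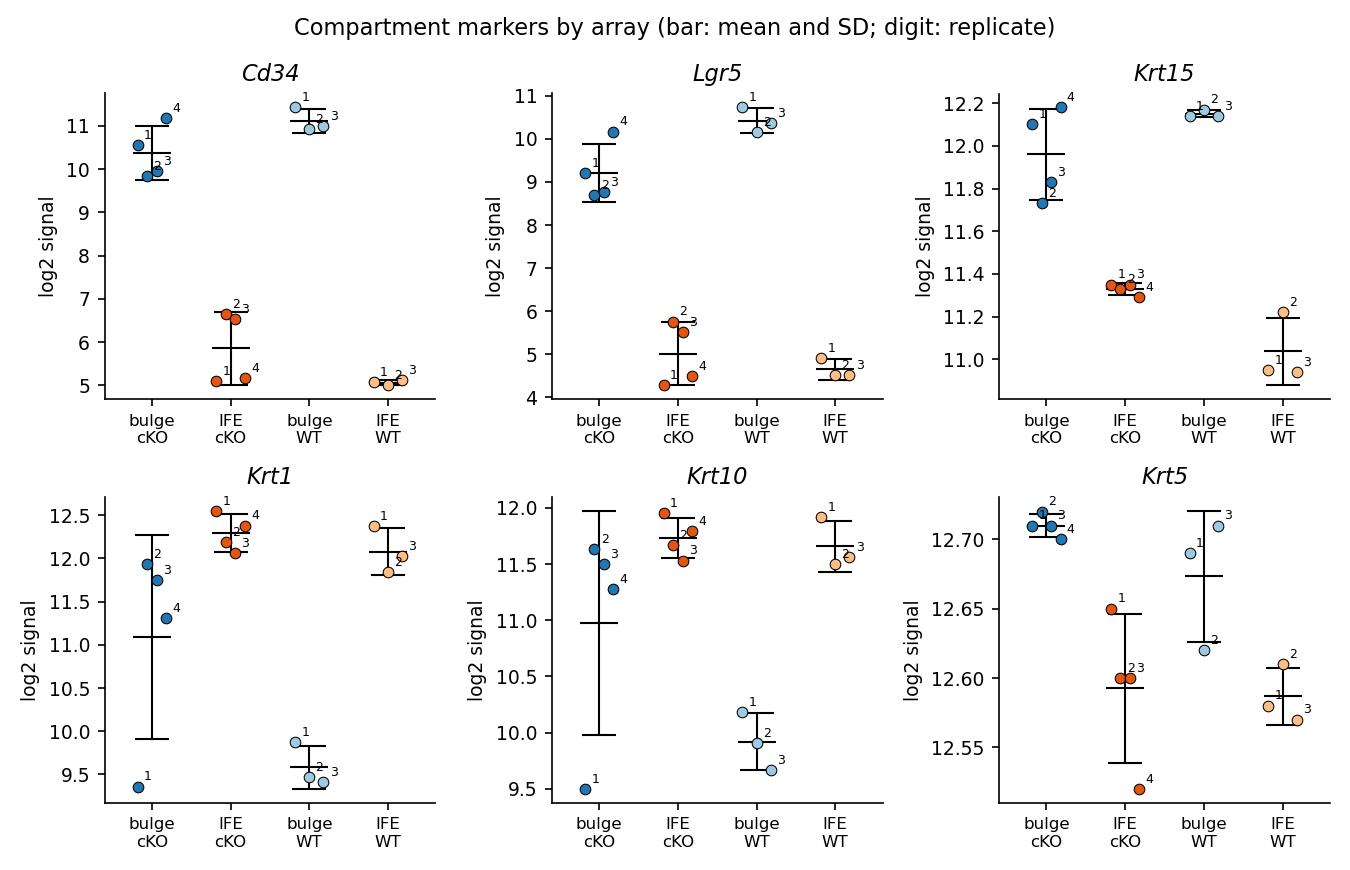
Log2 signal (y axis) of 6 compartment markers in the 4 groups (x axis), 1 point per array labelled by replicate, with the mean and SD as bars. Cd34 and Lgr5 separate the compartments in both genotypes, whereas Krt1 and Krt10 on bulge cKO replicates 2, 3 and 4 lie near the IFE arrays and on replicate 1 near the bulge WT arrays.

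The keratins of differentiation varied widely among the bulge cKO arrays. Krt1 read 9.36, 11.93, 11.75 and 11.31 in bulge cKO and 12.55, 12.19, 12.06 and 12.38 in IFE cKO. The groups did not overlap, but bulge replicate 1 was far below the other 3 bulge arrays, and replicates 2 and 3 were close to the lowest IFE array. The difference of -1.21 (SE 0.44) was not called (limma adjusted p = 0.0512). It was called at -0.63 without bulge replicate 1, at -1.49 without replicate 2, at -1.43 without replicate 3 and at -1.96 without replicates 2 and 3 together (limma adjusted p = 0.00575), and was -2.50 in WT. Krt10, the partner of keratin 1, read 9.50, 11.63, 11.50 and 11.28 against 11.95, 11.67, 11.53 and 11.79. Here the groups overlapped, and replicate 1 was again the low one. The difference was -0.76 (limma adjusted p = 0.139), -1.34 without replicates 2 and 3 (limma adjusted p = 0.0235), -0.26 without replicate 1 and -1.74 in WT. The basal keratins gave small differences: Krt5 0.12 (limma adjusted p = 0.0255, lost without bulge replicate 1 or 3 or IFE replicate 3 or 4, at 0.09 to 0.12) and Krt14 -0.19 (limma adjusted p = 0.0708).

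Most WT compartment differences remained without G9a. Of the 5998 genes called in WT, 3958 were called in the same direction in cKO, 66.0% of the WT calls and 72.0% of the cKO calls, with 1922 higher in the bulge and 2036 higher in IFE. The share grew with size: it was 48.7% of WT differences under 0.5, 71.9% from 0.5 to 1, 89.7% from 1 to 2 and 95.7% (337 of 352) above 2. Only 15 genes were called in opposite directions. A further 2025 genes were called in WT only, of which 5 had a called change between genotypes (Arhgef12, Ddit4l, Slc38a4, Tenm3 and Tslp), and 1523 in cKO only, of which 2 did (Dusp26 and an unnamed gene model). Arhgef12 and Ddit4l are named here after their values were seen. The 2 comparisons share no array.

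The larger WT differences were smaller in cKO. Over the 1341 genes called in WT with a difference of at least 1, the slope of the cKO difference on the WT difference was 0.65, and 1321 of them were smaller in cKO. The slope was 0.82 without bulge cKO replicates 2 and 3, when 1165 were smaller, and 0.92 without replicates 2 and 3 of both compartments. For single bulge cKO arrays against the IFE cKO mean it was 0.83, 0.46, 0.51 and 0.81 for replicates 1 to 4. The genes were chosen by their WT size, which by itself favours a smaller second value. Read from the cKO side, the median ratio of the WT to the cKO difference was 1.36 for the 111 genes called in cKO with a difference above 2, of which 99.1% were called in the same direction in WT. It was 1.43 for the 507 genes from 1 to 2 and 1.35 for the 1484 from 0.5 to 1. For the 3394 genes under 0.5, most of the cKO calls, it was 0.97, and 57.9% of them were called in the same direction in WT.

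**Figure D3:**
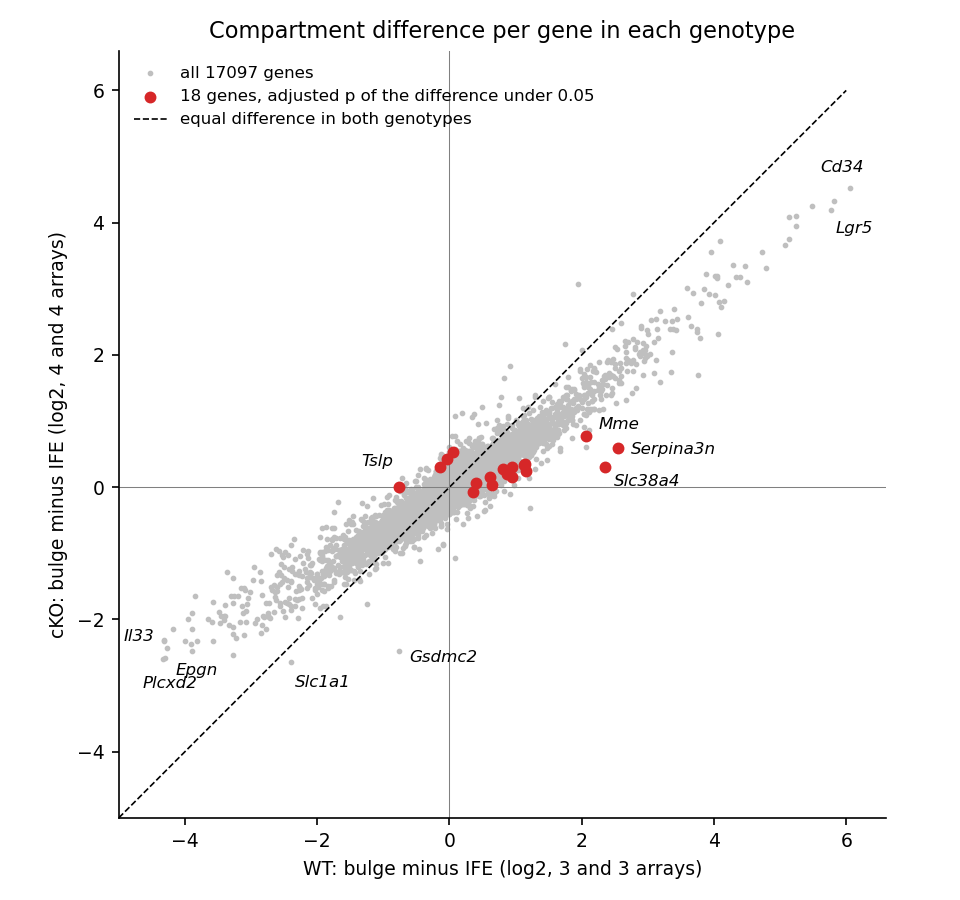
Compartment difference of each gene (bulge minus IFE, log2) in WT (x axis) and in cKO (y axis), with 17097 genes in grey and the 18 genes with a called change between genotypes in red. The dashed line marks equal differences; the cloud is flatter than it, with a slope of 0.65 over the 1341 genes of the largest WT differences.

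A direct test of the change called 18 genes, 0.105% of those tested, with 14 (0.0819%) shifted toward IFE and 4 (0.0234%) toward the bulge, while 2404 genes had an unadjusted p under 0.05. With replicate number as a block, which the labels do not state, 0 genes were called. The count without a block rested on single arrays. It was 240 without bulge cKO replicate 4, 3 without bulge cKO replicate 2 or 3 or IFE cKO replicate 3, and 7 without IFE cKO replicate 1. It was 4 without IFE WT replicate 1 or 2, 11 without IFE WT replicate 3, and 10, 11 and 8 without bulge WT replicates 1, 2 and 3. Without bulge cKO replicates 2 and 3 together it was 3, of which 2, Phka1 and Tmem176b, were among the 18 and the other was Rimklb. Phka1, Tenm3 and Tmem176b were called in all 14 leave-outs of 1 array, and the other genes below in 2 to 9 of them.

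**Figure D4:**
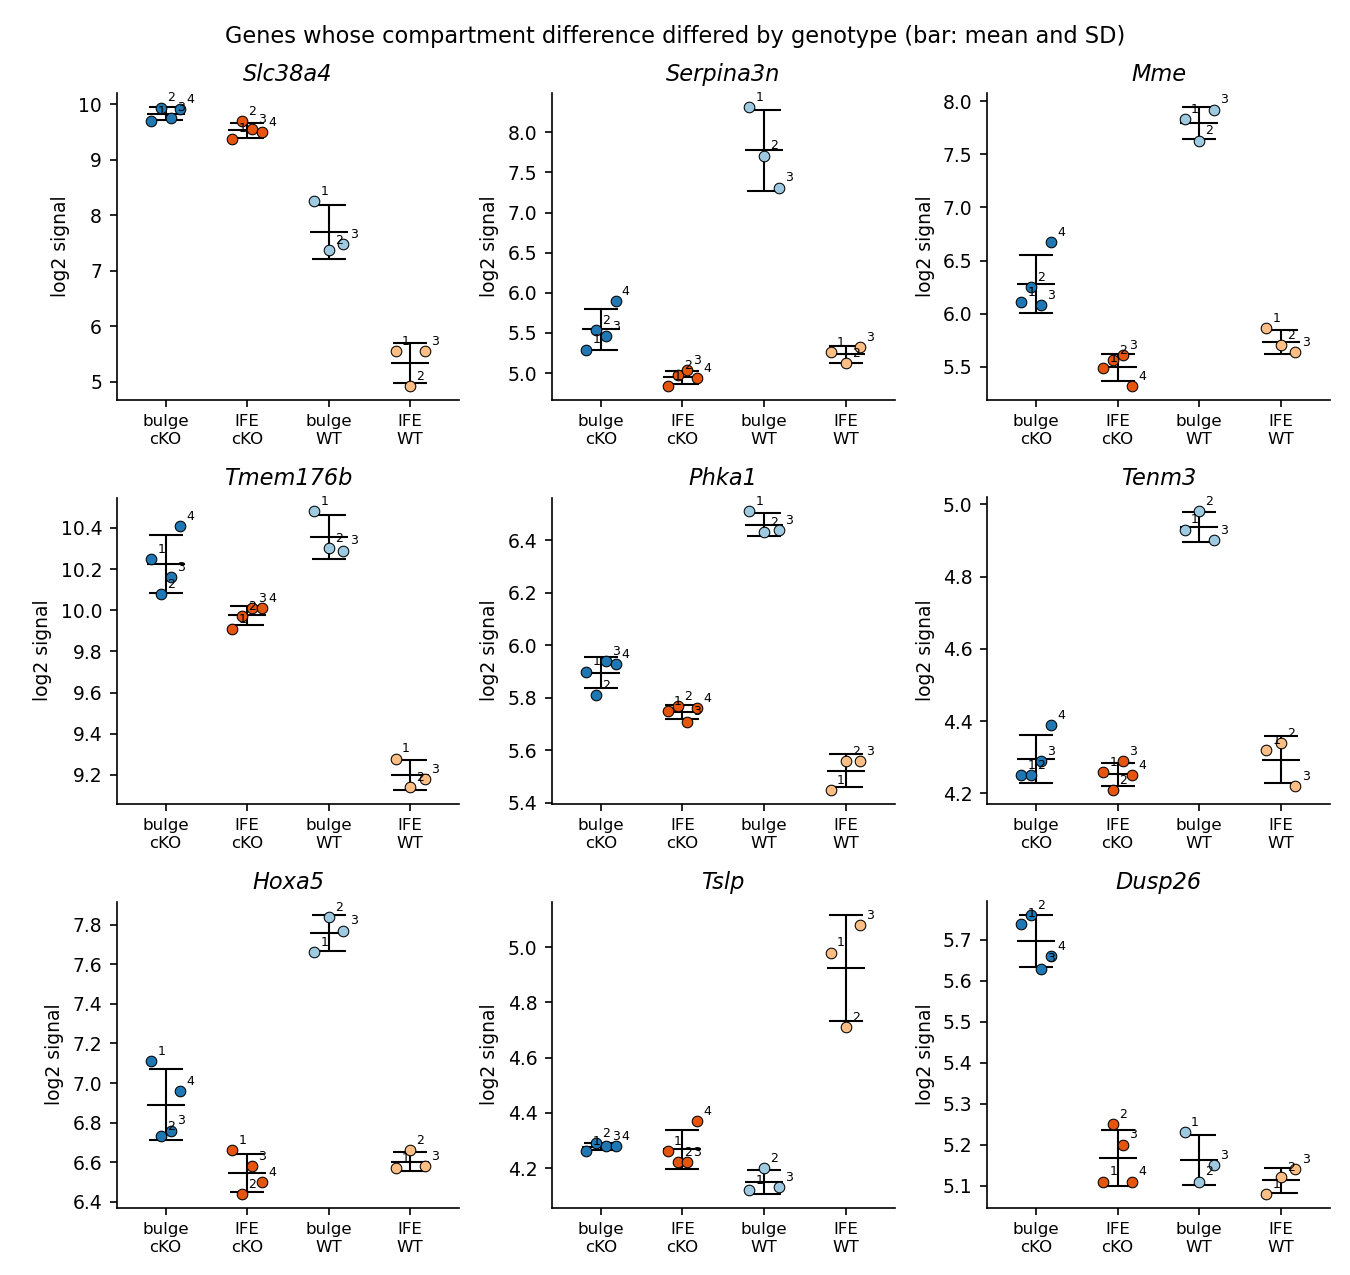
Log2 signal (y axis) of 9 of the genes with a called change of the compartment difference, by group (x axis), 1 point per array labelled by replicate, with mean and SD. Slc38a4 is high in both cKO groups, Serpina3n, Mme, Phka1, Tenm3 and Hoxa5 are high in bulge WT alone, Tslp in IFE WT alone and Dusp26 in bulge cKO alone.

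In 1 set of these genes a high signal of bulge WT cells was missing or reduced in bulge cKO cells. Serpina3n, a secreted inhibitor of serine proteases, read 5.29, 5.53, 5.46 and 5.90 in bulge cKO, 4.84, 4.97, 5.04 and 4.94 in IFE cKO, and 7.78 ± 0.50 (SD, n = 3) in bulge WT. The cKO arrays of both compartments lay below all bulge WT arrays and below the array medians, apart from bulge replicate 4, which lay just above them. The compartment difference was 0.60 in cKO (limma adjusted p = 0.0219, lost at 0.56, 0.60 and 0.48 without IFE replicate 1, IFE replicate 4 or bulge replicate 4) and 2.55 in WT, a change of -1.95 (SE 0.27, limma adjusted p = 0.0228). Mme, which encodes the membrane peptidase neprilysin, read 6.11, 6.25, 6.08 and 6.67 against 5.49, 5.56, 5.61 and 5.32, without overlap, for a difference of 0.78 against 2.06 in WT (change -1.28, limma adjusted p = 0.0284). Phka1, a regulatory subunit of phosphorylase kinase, had 0.15 against 0.94 (change -0.79, SE 0.06, limma adjusted p = 0.000507). Of its 3 probe sets, 2 were called for this change. On the probe set that stood for the gene, IFE cKO read 5.71 to 5.77 and IFE WT 5.45 to 5.56. Tenm3, a teneurin adhesion protein, read 4.25, 4.25, 4.29 and 4.39 against 4.26, 4.21, 4.29 and 4.25, so that the groups overlapped, and the WT difference of 0.64 had no counterpart (0.04, limma adjusted p = 0.464; change -0.60, limma adjusted p = 0.00684). The other Tenm3 probe set was not called for the change. The levels of Tenm3 are below the array medians throughout.

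The sorting receptor gene Sorcs3 (0.34 in cKO against 1.13 in WT), Hoxa5 (0.35 against 1.15), the phospholipid acyltransferase gene Lpcat4 (0.27 against 0.81), Stbd1 (0.15 against 0.62) and the planar polarity gene Vangl2 (0.31 against 0.94) also had smaller bulge excesses. Their changes were -0.79, -0.81, -0.53, -0.47 and -0.63, with limma adjusted p from 0.0228 to 0.044. None was called without bulge cKO replicates 2 and 3. The other probe sets of Sorcs3 (change -0.14) and Vangl2 were not called for the change. The cKO difference of Stbd1 lost its own call without any single cKO array other than IFE replicate 1 and bulge replicate 2. Hoxa5, a Hox transcription factor, read 7.11, 6.73, 6.76 and 6.96 in bulge cKO and 6.66, 6.44, 6.58 and 6.50 in IFE cKO. Its cKO groups did not overlap and both lay below the bulge WT mean of 7.76.

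In Slc38a4 the difference shrank with a high signal in both cKO compartments. This gene, which encodes an amino acid transporter and is imprinted in the mouse, read 9.70, 9.94, 9.76 and 9.91 in bulge cKO and 9.38, 9.69, 9.55 and 9.50 in IFE cKO, against WT means of 7.70 ± 0.48 (SD, n = 3) for the bulge and 5.35 ± 0.36 (SD, n = 3) for IFE. The cKO groups were close and above every WT array. The difference was 0.30 (SE 0.19, limma adjusted p = 0.242) in cKO and 2.36 in WT, a change of -2.06 (SE 0.28, limma adjusted p = 0.0228). The change was -2.08 with limma adjusted p = 0.114 without bulge cKO replicates 2 and 3. Its second probe set gave a change of -0.58 that was not called (limma adjusted p = 0.406). For Tmem176b, a membrane protein of immune and epithelial cells, the signal was higher than in WT in IFE cKO but not in bulge cKO. It read 10.25, 10.08, 10.16 and 10.41 in bulge cKO and 9.91, 9.97, 10.01 and 10.01 in IFE cKO. The WT means were 10.36 for the bulge and 9.20 for IFE. All 4 IFE cKO arrays lay above the IFE WT mean, and the difference was 0.25 against 1.16 (change -0.91, limma adjusted p = 0.00959).

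The changes toward the bulge were small. With dim probe sets left out, 0 changes were called toward the bulge and 6 toward IFE. Tslp, a cytokine that keratinocytes release in barrier defects, read 4.26, 4.29, 4.28 and 4.28 in bulge cKO and 4.26, 4.22, 4.22 and 4.37 in IFE cKO, with overlap. These cKO levels are below the array medians. Its WT excess in IFE (-0.77) was 0.01 in cKO (change 0.79, limma adjusted p = 0.0223). Dusp26, a dual-specificity phosphatase, had a compartment difference in cKO (0.53, SE 0.05, limma adjusted p = 4.05e-05) and not in WT (0.05, limma adjusted p = 0.487). It read 5.74, 5.76, 5.63 and 5.66 in bulge cKO and 5.11, 5.25, 5.20 and 5.11 in IFE cKO, without overlap but near or below the array medians (change 0.47, limma adjusted p = 0.0327). Slc41a3 had 0.30 in cKO against -0.15 in WT (change 0.44, limma adjusted p = 0.0411), and its other 2 probe sets were not called for the change.

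Gene lists are given below by the number of measured genes called in each direction, to be read against 17.6% of all genes higher in the bulge and 14.6% higher in IFE in cKO, and by their median difference, beside a median of all genes of 0.03 in cKO and -0.01 in WT. Without bulge cKO replicates 2 and 3 the shares of all genes were 15.0% and 12.5%.

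**Figure D5:**
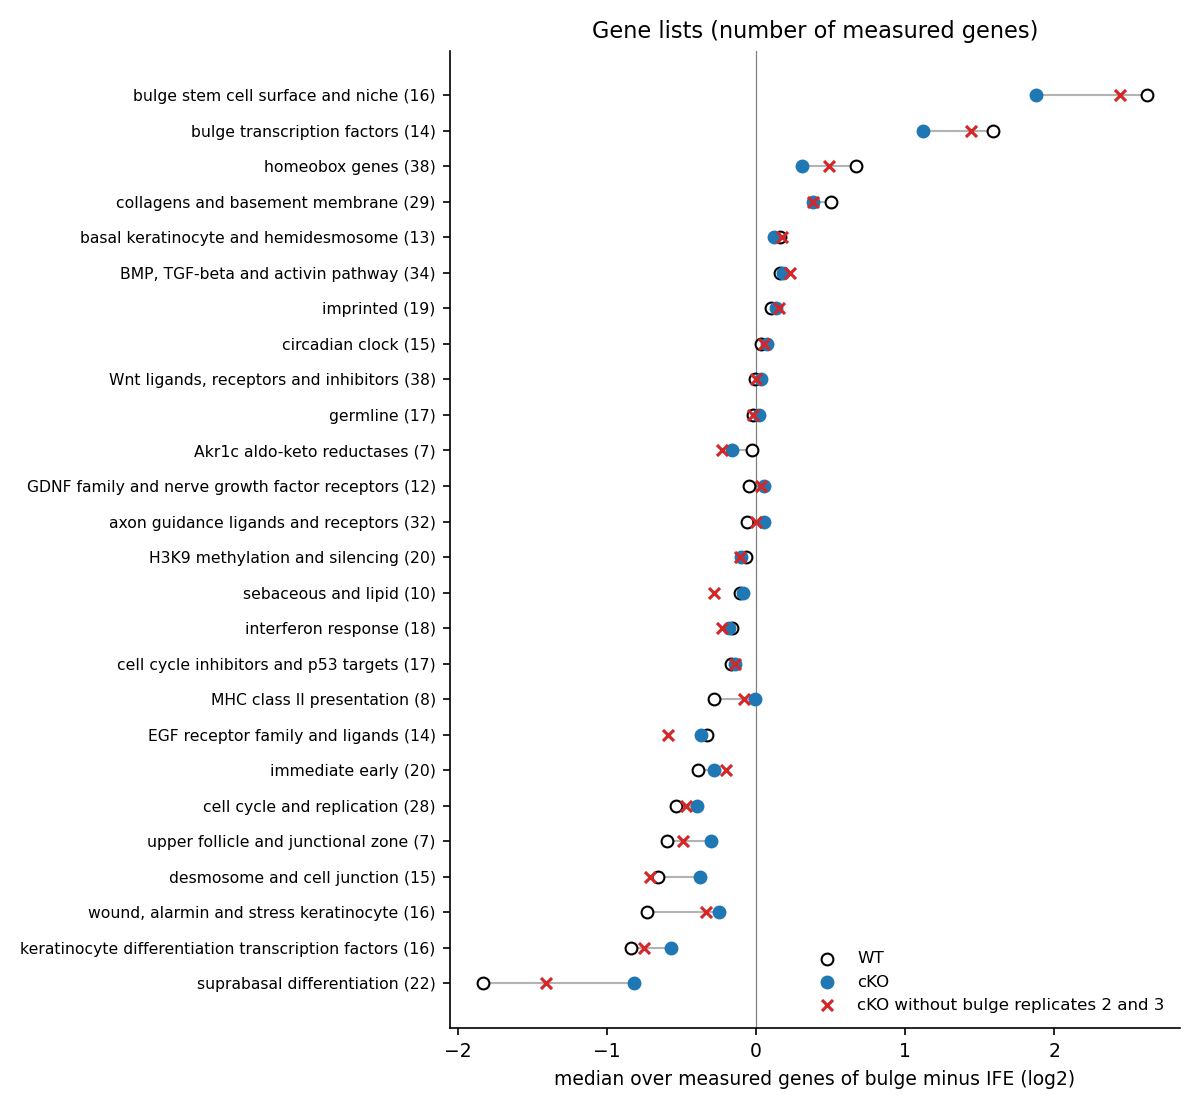
Median compartment difference (x axis, log2, bulge minus IFE) over the measured genes of each of 26 lists (y axis, number measured in brackets) in WT (open circles), in cKO (filled circles) and in cKO without bulge replicates 2 and 3 (crosses). Bulge niche genes and transcription factors lie to the right in all 3 settings, and suprabasal differentiation genes to the left, with a cKO median of -0.82 against -1.83 in WT.

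All 16 genes of the bulge surface and niche list were called in cKO, 14 higher in the bulge and 2 higher in IFE, with the same directions in WT. The median was 1.88 in cKO, 2.44 without replicates 2 and 3 and 2.62 in WT, and 15 of the 16 differences were smaller in cKO. Sfrp1, a secreted inhibitor of Wnt signalling, differed by 2.67 (SE 0.18) and Dkk3 by 3.00 (SE 0.24). Sfrp1 read 11.57, 10.71, 10.97 and 11.54 in bulge cKO and 8.30, 8.71, 8.79 and 8.29 in IFE cKO, with the groups well apart. Itga6, the laminin receptor of all basal keratinocytes, was higher in IFE (-0.63, SE 0.08), as was Dio2 (-0.19, called in 2 of 8 leave-outs).

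Of the transcription factors known from bulge stem cells, 12 of 14 were higher in the bulge, Meis2 was higher in IFE (-1.11) and Gli3 was not called (0.15). Their median was 1.12 in cKO, 1.44 without replicates 2 and 3 and 1.59 in WT, and all 14 were smaller in cKO. Lhx2, a LIM homeobox factor needed for follicle stem cell quiescence, read 9.56, 8.20, 8.62 and 9.73 in bulge cKO and 4.50, 5.61, 5.62 and 4.59 in IFE cKO. The groups were apart by more than their spread (3.95, SE 0.34). Sox9 (1.92, SE 0.17), Tbx1 (2.39, SE 0.28), the hedgehog effector Gli2 (1.99, SE 0.23) and Nfib (1.12, SE 0.11) were also higher in the bulge.

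Homeobox genes as a list were higher in the bulge where called: 25 of 38 and none higher in IFE, with 27 and none in WT. The median was 0.31 in cKO, 0.49 without bulge replicates 2 and 3 (22 called) and 0.67 in WT. Hoxc8 read 9.03, 7.65, 7.98 and 9.05 in bulge cKO and 5.83, 5.99, 6.38 and 5.73 in IFE cKO, a difference of 2.44 (SE 0.31), while Hoxb7 read 8.15, 8.41, 8.13 and 8.16 against 6.85, 6.65, 6.97 and 6.71, a difference of 1.42 (SE 0.09). Bulge replicates 2 and 3 were the outer ones of their group for Hoxc8, toward IFE, but not for Hoxb7, where replicate 2 was the highest. Hoxb5 (1.43) and Hoxd8 (1.10) were higher in the bulge, as was Dlx3 (0.50), a homeobox factor of hair and epidermal differentiation.

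Matrix genes divided by chain. Of 29 collagen and basement membrane genes 16 were higher in the bulge and 4 in IFE, with a median of 0.38 in cKO and 0.50 in WT. Col8a2, a short-chain collagen, read 9.56, 8.76, 9.02 and 10.47 in bulge cKO and 4.93, 5.83, 5.80 and 4.92 in IFE cKO, a difference of 4.09 (SE 0.34), and the basement membrane protein nephronectin, Npnt, differed by 1.80 (SE 0.19). The collagen IV genes, which lie in the genome as head-to-head pairs, were looked at as pairs after their values were seen. Col4a1 and Col4a2 were higher in the bulge (1.28 and 1.68), as were Col4a3 and Col4a4 (0.60 and 0.83), while Col4a5 and Col4a6 were higher in IFE (-0.54 and -0.93). The other 2 higher in IFE were Col16a1 (-0.34, called in 4 of 8 leave-outs) and Lama1 (-0.69). Col4a6 read 6.82, 7.01, 7.04 and 6.95 in bulge cKO and 8.12, 7.82, 7.71 and 7.88 in IFE cKO, without overlap. Its difference was larger in cKO than in WT (-0.46), a change that was not called (limma adjusted p = 0.179).

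The BMP, TGF-beta and activin list had 14 of 34 genes higher in the bulge and 6 higher in IFE (14 and 4 without bulge replicates 2 and 3), with medians of 0.18 in cKO and 0.16 in WT. BMP ligands were called in both directions: Bmp2 was higher in IFE, at 9.75, 9.05, 9.14 and 9.48 against 7.98, 7.98, 8.21 and 8.19 in the bulge (-1.26, SE 0.15), and was close to its WT difference of -1.45. Named after their values were seen, Bmp4 was also higher in IFE (-1.75, SE 0.26) and Bmp6 was higher in the bulge (0.74, SE 0.14). Grem1 and the follistatin-like Fstl1 (2.80, SE 0.30), the TGF-beta binding protein Ltbp2 (3.18, SE 0.30) and Id2 (2.39, SE 0.27), a target of BMP signalling, were higher in the bulge. In the Wnt list 12 of 38 genes were higher in the bulge and 12 in IFE, with a median of 0.03. The receptors Fzd2 (2.91, SE 0.22) and Fzd3 (1.95, SE 0.19) stood on the bulge side and the ligand Wnt10a (-0.99, SE 0.13) on the IFE side.

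Guidance and nerve-related genes were called in both directions. Of 32 axon guidance genes 8 were higher in the bulge and 7 in IFE, with a median of 0.05. Sema3e, a secreted semaphorin, read 9.80, 8.32, 8.74 and 10.05 in bulge cKO and 5.06, 5.85, 5.94 and 5.07 in IFE cKO (3.75, SE 0.34), and Efnb2 and Plxna2 followed at 0.90 and 0.86. Robo1 and the ephrin receptor Epha2 (-1.15, SE 0.19) were higher in IFE. Among 12 GDNF family and nerve growth factor genes 4 were higher in the bulge and 3 in IFE: the co-receptors Gfra1 and Gfra2 (2.26, SE 0.19), Bdnf (0.61, SE 0.07) and the receptor Ret (0.69) in the bulge, the ligand Gdnf (-0.38, SE 0.08), Ngfr (-0.57, SE 0.13) and the receptor Ntrk2 (-0.38, called in 4 of 8 leave-outs) in IFE. Gfra2 read 7.93, 8.21, 8.15 and 8.82 against 5.76, 6.28, 6.37 and 5.70, and its change from a WT difference of 3.79 was not called (-1.53, limma adjusted p = 0.0766).

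Calls among the genes of suprabasal differentiation, which build the cornified layer, changed in number without the 2 bulge replicates that stood apart. Of 22 measured, 12 were higher in IFE in WT with a median of -1.83, and in cKO 5 were higher in IFE and 1 in the bulge, with a median of -0.82. Without bulge cKO replicates 2 and 3, 13 were higher in IFE with a median of -1.41. The mean level of the list was 7.25 on bulge cKO replicate 1, 8.28 on replicate 4, 8.82 on replicate 3 and 9.09 on replicate 2. On IFE cKO replicates 1 to 4 it was 8.82, 9.27, 9.14 and 8.89. No member had a called change between genotypes. Dsg1a, the desmoglein of upper layers, read 5.68, 9.18, 8.81 and 7.79 in bulge cKO and 10.00, 9.91, 9.55 and 10.01 in IFE cKO. The groups did not overlap, and the bulge arrays covered a wide span with replicate 1 lowest (-2.00, SE 0.59, limma adjusted p = 0.0209, lost without IFE replicate 4). Abca12, the lipid transporter of lamellar granules, gave -1.52 (SE 0.29) and transglutaminase 3, Tgm3, gave -1.53 (SE 0.31). The other 2, named after their values were seen, were the caspase Casp14 (-1.52), which kept its call in 2 of 8 leave-outs of an array, and the kallikrein Klk8 (-1.15), which kept it in 2. Sbsn, which encodes suprabasin, was the member higher in the bulge (0.39, limma adjusted p = 0.0222, lost at 0.29, 0.34 and 0.37 without IFE replicate 1, IFE replicate 4 or bulge replicate 2).

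The transcription factors of keratinocyte differentiation, with Notch ligands and receptors, were higher in IFE where called. Of 16 measured, 9 were higher in IFE and none in the bulge, with medians of -0.57 in cKO, -0.75 without replicates 2 and 3 and -0.84 in WT. Klf5, a Krüppel-like factor of proliferating epithelium, read 8.40, 9.01, 8.86 and 8.54 in bulge cKO and 10.29, 9.66, 9.80 and 9.86 in IFE cKO (-1.20, SE 0.17). The groups were apart, with replicates 2 and 3 nearest each other. The repressor Ovol1 (-1.47, SE 0.27), the Notch ligand Dll1 (-1.26, SE 0.24), Zfp750 (-0.75, SE 0.19) and Notch1 (-0.50, SE 0.10) were higher in IFE too. Of 15 desmosome and junction genes 8 were higher in IFE and none in the bulge, among them E-cadherin, Cdh1 (-0.84, SE 0.16), Dsg2 (-0.71, SE 0.12) and plakoglobin, Jup (-0.38, SE 0.10). The list median was -0.38 in cKO, -0.71 without replicates 2 and 3 and -0.66 in WT.

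Some growth and stress genes were higher in IFE. Of 14 EGF receptor family genes 6 were higher in IFE and none in the bulge, with a median of -0.37 in cKO and -0.33 in WT. Without bulge replicates 2 and 3 the count was 5 and the median -0.59. Beside Epgn they included the ligand Hbegf (-0.78, SE 0.20) and the receptors Erbb3 (-0.92, SE 0.18) and Erbb2 (-0.38, SE 0.11). Of 16 wound, alarmin and stress genes 6 were higher in IFE, against 11 in WT, with medians of -0.25 and -0.73. Without bulge replicates 2 and 3, 7 were called and the median was -0.34. Serpinb2, a serpin of stressed keratinocytes, read 7.65, 9.73, 9.54 and 8.71 in bulge cKO and 11.81, 10.69, 10.69 and 11.05 in IFE cKO (-2.15, SE 0.45), with bulge replicate 1 lowest. Il18 was higher in IFE by a margin near that of WT (-0.99 against -0.74).

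Cell cycle genes were higher in IFE in 13 of 28 cases and higher in the bulge in none, with 22 and none in WT. Without bulge replicates 2 and 3, 9 were higher in IFE. The median was -0.40 in cKO and -0.54 in WT. The helicase subunits Mcm2 (-0.38), Mcm3 (-0.80) and Mcm6 (-0.59), Pcna (-0.31) and the G1 cyclin Ccnd1 (-0.47) were called. The other probe sets of Mcm2 (-0.55) and Mcm3 (-0.08) were not called. Ccnd1 read 9.80, 10.00, 10.08 and 9.94 in bulge cKO and 10.40, 10.34, 10.39 and 10.59 in IFE cKO, without overlap and with little spread in either group, and its WT difference was -0.26. Among 17 cell cycle inhibitors and p53 targets 6 were higher in IFE and 2 in the bulge (Cdkn1c, called in 4 of 8 leave-outs, and Phlda3, called in 3). Without bulge replicates 2 and 3 these counts were 7 and 5, and in WT 8 and 5. Pmaip1, which encodes the pro-apoptotic NOXA, read 7.05, 8.58, 8.47 and 7.57 against 10.19, 9.60, 9.61 and 10.23 (-1.99, SE 0.30), and Gadd45a (-1.04, SE 0.20), Sesn2 (-1.10, SE 0.24) and Mdm2 (-0.44, SE 0.06) had the same direction.

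Among 20 genes of H3K9 methylation and silencing, 6 were higher in IFE and none in the bulge in each genotype, of which 4 were the same genes. Without bulge cKO replicates 2 and 3, 4 were higher in IFE in cKO. The demethylase Kdm3a (-0.64, SE 0.10), the maintenance DNA methyltransferase Dnmt1 (-0.52, SE 0.09), the reader Cdyl (-0.52, SE 0.12) and the co-repressor Trim28 (-0.23, SE 0.06) were among them. Of 19 imprinted genes 9 were higher in the bulge and 2 in IFE in cKO, and 6 and 2 without bulge replicates 2 and 3. Peg3 read 7.04, 6.50, 6.56 and 7.13 in bulge cKO and 4.77, 5.21, 5.13 and 4.52 in IFE cKO (1.90, SE 0.19). Sgce (2.01, SE 0.19) and Smoc1 (0.85, SE 0.17) were on the same side. The other Sgce probe set, at levels below the array medians, was not called (0.10). Plagl1 (-0.67, SE 0.16) and Gab1 (-0.40, called in 4 of 8 leave-outs) were higher in IFE. Snrpn read 9.41, 9.37, 9.32 and 9.42 in bulge cKO against 8.92, 9.20, 9.04 and 8.87 in IFE cKO, without overlap. All cKO arrays lay above all WT arrays, whose means were 8.73 for the bulge and 7.64 for IFE. The Snrpn difference of 0.37 was smaller than the 1.08 of WT by a margin that was not called (limma adjusted p = 0.0572).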

How the data were processed

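The deposited values are log2 signals of probe sets, which the authors made with RMA per the submitters' processing notes; the labels state no version. Per the labels' protocols, cDNA was amplified from 25 ng of total RNA in 17 cycles, which can compress or stretch differences. The table has 45141 probe sets on 14 arrays, with 0 unmapped sample columns.

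Genes were assigned to probe sets through Entrez identifiers: 28898 had a single symbol, 551 several and 15692 none. Symbols came from RefSeq for 28689 and from the platform for 209. The probe set with the highest mean over all arrays stood for each of 17097 genes, a choice among several for 7180. Dim probe sets were kept.

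All 14 arrays entered 1 fit of the 4 group means with limma 3.58.1 in R 4.3.3 (lmFit, eBayes without trend). Contrasts were bulge minus IFE in cKO, the same in WT, and their difference. Tests were two-sided with Benjamini and Hochberg adjustment over all genes, at an adjusted p under 0.05. SE values are limma's. On simulated data for 17097 genes, the cKO contrast found 94% of 67 genes shifted by 1 on the log2 scale, with 9 false calls. The difference found 79.1% of 67, with 13 false calls. The simulated spread was independent between arrays, without the shared displacement of cKO replicates 2 and 3. These shares are therefore not rates for these data, where a change of 2.03 for Serpinb2 was not called.

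The comparison, the 26 gene lists (540 entries, 495 measured) and the 11 marker lists (95 entries, 94 measured) were chosen with earlier results of these data known. The lists not described in the report are given in the closing section. Genes named are Ehmt2, Ehmt1, 6 compartment markers, the 12 largest called differences without overlap in each direction in cKO and the 10 in WT, the 12 largest changes between genotypes in each direction, up to 8 genes called in cKO and for the change but not in WT, up to 5 members of each list with the smallest p in cKO, list members called for the change, and cell type markers; gene models without a proper name are left unnamed. Names outside this rule are said to have been chosen after their values were seen or stand in a count of few genes.

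Alternatives were cyclic loess, median centring, leaving out dim probe sets, the mean of probe sets, the probe set of largest interquartile range, array weights, a trend with robust fitting, a fit of the compared groups alone, a minimum of 1 on the log2 scale, a block for replicate number, leaving out each array, and leaving out bulge cKO replicates 2 and 3. Leaving out replicates 2 and 3 of both cKO compartments, and testing every probe set by itself, were chosen after seeing the data. Figures were drawn with matplotlib 3.10.9.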

Additional observations from a re-analysis of the deposited data

Results flagged for a closer look

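The compartment difference, bulge minus IFE, was called different between cKO and WT for 14 named genes. The change on the log2 scale was negative for Slc38a4 (-2.06), Serpina3n (-1.95), Mme (-1.28), Tmem176b (-0.91), Hoxa5 (-0.81), Phka1 (-0.79), Sorcs3 (-0.79), Vangl2 (-0.63), Tenm3 (-0.60), Lpcat4 (-0.53) and Stbd1 (-0.47). It was positive for Tslp (0.79), Dusp26 (0.47) and Slc41a3 (0.44). The limma test of the difference itself is given with each gene in the report.

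Single arrays lay far from the other 3 of their group for 10 genes among 324 groups of 4 arrays checked, 3.09%. The 95% critical value used is set so that chance flags about 1 in 20 groups. On bulge cKO replicate 1 the suprabasal keratin Krt10 read 9.50, Krt14 12.03, the transcription factor Klf2 6.57 and the neurotrophin receptor Ngfr 7.69, each below the other bulge cKO arrays. On bulge cKO replicate 2 Cdyl read 5.02, below the rest, and Hoxb7 8.41, above them. Fosl1, an AP-1 subunit, read 9.34 on bulge cKO replicate 4, below the rest. In IFE cKO the invariant chain Cd74 read 7.11 on replicate 1, below the rest, while on replicate 4 the fatty acid synthase gene Fasn read 8.32, below the rest, and the helicase subunit Mcm3 8.34, above them.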

How the results depend on the processing

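The count of genes called in cKO was 10318 with array weights, whose fit did not converge, and 618 with a minimum of 1 on the log2 scale; leaving out single arrays gave 4096 to 5389. The WT count was 1341 with that minimum and 4801 to 5538 over the leave-outs, and genes called alike in both genotypes numbered 600 with it. For the change between genotypes, array weights gave 4974 genes, leaving out dim probe sets 6, the minimum 3, leaving out bulge cKO replicates 2 and 3 gave 3, leaving out replicates 2 and 3 of both cKO compartments 3, and single arrays 3 to 240. The slope was 0.92 without replicates 2 and 3 of both compartments. H2-Aa turned from 0.10 to -0.79 in cKO on the probe set of largest interquartile range. The cause of these shifts was not tested. Other settings, apart from the block, kept these counts within 1.5 times. Of the 137 named genes called in cKO, 121 kept the call in every leave-out of an array. Many were named for a large difference or a small p in this same comparison, which by itself favours a kept call. The share is therefore not one for all called genes.

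Deviations of same-numbered arrays correlated at -0.029, 0.11, -0.57 and 0.151 in cKO and 0.251, 0.036 and 0.144 in WT. Differently numbered arrays gave -0.389 to 0.469 in cKO and -0.254 to 0.136 in WT. These values do not decide whether the replicate numbers pair the arrays. The cKO replicates that stood apart were displaced in opposite directions in the compartments, which can lower same-numbered correlations even in paired arrays. With the number as a block, 5225 genes were called in cKO, 5928 in WT and 0 for the change in limma (smallest adjusted p 0.0587, 2446 at an unadjusted p under 0.05).

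Arrays have no read depth, and 3 or 4 arrays per group limit the precision. Signals near the array medians were not tested against background.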

Other observations

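Clock genes were called in both directions between the cKO compartments, 2 of 15 higher in the bulge and 4 in IFE (the fourth being Cry1, -1.20), with a median of 0.07. The repressor Bhlhe40 read 8.10, 8.81, 8.71 and 7.95 in bulge cKO and 10.32, 9.81, 9.79 and 10.31 in IFE cKO, without overlap (-1.66, SE 0.22, limma adjusted p = 0.000297). Arntl, the positive arm of the clock (-0.74, SE 0.14), and Hlf (-0.59, SE 0.14) were higher in IFE, and Cry2 (0.71, SE 0.14) and Tef (0.73, SE 0.12) in the bulge, each on the same side as in WT. Immediate early genes were higher in IFE where called, 6 of 20 and none in the bulge, with Fosl1 at -1.07 (SE 0.23) and Egr2 at -0.81 (SE 0.20); 3 were called without bulge cKO replicates 2 and 3. Of 18 interferon response genes 7 were higher in IFE and 1, Ifit3 (0.30), in the bulge, whose call was kept in 2 of 8 leave-outs of an array and lost without bulge replicates 2 and 3 (0.10), when 8 were higher in IFE. Ifi202b, a DNA sensor of the HIN family, read 7.61, 8.79, 8.96 and 8.20 in bulge cKO and 11.56, 10.11, 10.07 and 10.40 in IFE cKO (-2.15, SE 0.48), with bulge replicate 1 lowest and IFE replicate 1 highest.

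The aldo-keto reductase gene Akr1c12, which reduces steroids and other carbonyls, read 7.81, 8.20, 7.98 and 8.19 in bulge cKO and 8.62, 8.49, 8.70 and 8.88 in IFE cKO, without overlap (-0.63, SE 0.10, limma adjusted p = 0.00104). Its WT means were 5.43 and 5.46, with a difference of -0.03, and the change between genotypes was not called (-0.60, limma adjusted p = 0.188). Of the 7 members measured, Akr1c12 and Akr1c13 were called in cKO and none in WT, and Akr1c13 (-0.36) lost its call without IFE replicate 3 or 4 or bulge replicate 3. Near relatives in this family can share probe sequence, so the signals of Akr1c12 and Akr1c13 may not be separate.

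Of 13 basal keratinocyte and hemidesmosome genes 6 were higher in the bulge and 2 in IFE, Itga6 and Itga3 (-0.32, lost without IFE replicate 1 or 4 or bulge replicate 2), with a median of 0.12, and Trp63, the master factor of stratified epithelium, differed by 0.33 (SE 0.08). None of 7 upper follicle and junctional zone genes was called, against 4 higher in IFE in WT, and the median was -0.30 against -0.60. Without bulge cKO replicates 2 and 3, Gata6 (-0.56) and Krt79 (-1.23) were higher in IFE. On all arrays, other probe sets of Plet1 (-0.82) and Lrig1 (-0.48) were called higher in IFE in cKO. The remaining Plet1 probe set (-0.09) and the other of Gata6 (-0.23) were not called. MHC class II genes had 1 of 8 called, H2-DMb1 (0.81, SE 0.16), germline genes 2 of 17, Piwil2 (0.43) and Tuba3a (0.29), and sebaceous and lipid genes 3 of 10, with Mgst1 (0.97) and Plin2 (0.37) higher in the bulge, each keeping its call in 3 of 8 leave-outs, and Fasn higher in IFE (-0.51, SE 0.11); without bulge replicates 2 and 3 the sebaceous list had 2 higher in the bulge and 5 in IFE. The markers of basal keratinocytes shared by both compartments averaged 10.94 to 11.06 in bulge cKO and 11.09 to 11.27 in IFE cKO, with 3 of 6 called higher in the bulge and 2 higher in IFE, and 1 and 2 without bulge replicates 2 and 3.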
